A study of Homo sapiens with 6 samples.

Results

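The lysyl oxidase family comprises 5 genes, LOX, LOXL1, LOXL2, LOXL3 and LOXL4, and all 5 were found by symbol among the 65198 gene rows of the expression table. They were chosen from the contrast described here, because LOX was lower while LOXL2 and LOXL4 were higher in cells expressing a hairpin against HOTAIR. Their values in that contrast are therefore given as a description and without a test. The cells were MDA-MB-231, a line of basal-like breast adenocarcinoma. The 3 shHOTAIR libraries came from cells with a tetracycline-inducible hairpin RNA that targets the long non-coding RNA HOTAIR, and the 3 shCtrl libraries from cells with an inducible hairpin of scrambled sequence. Cells of both groups received 1 µg/ml doxycycline for 96 h, and no library without doxycycline or without a hairpin was used. The labels name 1 derivative and 1 hairpin per group, so the spread given is that between repeats of the same derivative.

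Lysyl oxidases are secreted, copper-dependent amine oxidases that oxidise lysine side chains of collagens and elastin, the step from which the covalent cross-links of these fibres form. LOX and LOXL1 carry long propeptides that are cut off by BMP1-type proteases, whereas LOXL2, LOXL3 and LOXL4 carry scavenger receptor cysteine-rich domains instead. In breast cancer LOX is known as a hypoxia-induced gene linked to matrix stiffening and spread, and LOXL2 as a gene of basal-like tumours that also acts with the transcription factor SNAI1.

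The values were FPKM, fragments per kilobase of transcript scaled by the depth of the library, so levels of different genes can be set side by side within a library. Over all genes they summed to 1620978 to 1820768 in the shHOTAIR libraries and 2224150 to 2569505 in the shCtrl libraries. Over protein-coding genes they summed to 735041 to 769410 in shHOTAIR and 770127 to 794678 in shCtrl. A scaling to equal protein-coding totals is given below as an alternative, but none to equal totals over all genes was run. Between 27416 and 29392 genes were above 0 in a library, and the number of fragments per library is not known. HOTAIR itself was listed at 0, 0 and 0.0113 FPKM in shHOTAIR and at 0, 0.0128 and 0.0132 FPKM in shCtrl, too low for a difference to be detectable. Most markers taken for the line differed between the groups. VIM, on chromosome 10, was lower, with means of 393 FPKM in shHOTAIR and 948 FPKM in shCtrl. EGFR (157 against 76.7 FPKM), CAV1 (218 against 116) and KRT8 (241 against 141) were higher in shHOTAIR. So were KRT18 (232 against 150), AXL (195 against 139) and PLAUR (91.9 against 76.2). Libraries of the groups did not overlap for these, but did for CD44 (480 against 475). The groups did not overlap for 43.0% of the 15934 genes with a mean of 1 FPKM or more. The difference of PLAUR did not pass in limma, a linear-model test (adjusted p = 0.121). All 8 markers taken for the line (VIM, CD44, KRT8, KRT18, EGFR, CAV1, AXL and PLAUR) were above a mean of 1 FPKM. Of 8 luminal and hormone receptor markers 4 were, KRT19 (30.9 to 35.7 FPKM in shHOTAIR and 42.2 to 56.1 FPKM in shCtrl), ERBB2, FOXA1 and GATA3, while PGR was at 0 in all 6 libraries and CDH1, EPCAM and ESR1 did not exceed 0.114 FPKM. The summed level of that list was 52.1 to 62.8 FPKM in shHOTAIR and 65.3 to 85.8 FPKM in shCtrl. Of 9 fibroblast markers 2 reached a mean of 1 FPKM, and their summed level was 4.59 to 6.04 FPKM in shHOTAIR and 2.73 to 3.51 FPKM in shCtrl. COL1A1 held 3.27 to 3.82 FPKM of that sum in shHOTAIR and 1.08 to 1.58 FPKM in shCtrl. PDGFRB, the other of the 2, was at 0.533 to 1.58 FPKM in shHOTAIR and 0.760 to 1.46 FPKM in shCtrl, DCN reached 0.524 FPKM, and PDGFRA, LUM, COL1A2, COL3A1, THY1 and FAP did not exceed 0.296 FPKM. Of 7 leukocyte markers only CD68 reached a mean of 1 FPKM, and of 6 endothelial markers only KDR did. Their part in the values below was not tested.

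The start regions of LOX and LOXL4 are shown because these 2 genes differed in opposite directions. Each sequence is the part of the 250 bases before the most upstream RefSeq start (GRCh38.p14) that lies outside the GENCODE gene span, on the minus strand at chr5:122078361-122078509 for LOX and chr10:98268251-98268444 for LOXL4. Capitals mark ACGTG on either strand (CACGT on the printed strand), the core of the element that hypoxia-inducible factors bind.
LOX: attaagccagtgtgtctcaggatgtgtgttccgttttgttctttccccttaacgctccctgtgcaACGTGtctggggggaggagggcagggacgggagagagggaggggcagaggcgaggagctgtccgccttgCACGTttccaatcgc
LOXL4: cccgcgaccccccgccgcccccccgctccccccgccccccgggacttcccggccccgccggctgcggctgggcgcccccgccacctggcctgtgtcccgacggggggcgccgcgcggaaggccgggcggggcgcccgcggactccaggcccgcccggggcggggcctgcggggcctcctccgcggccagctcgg
The LOX stretch holds 2 such cores, and the whole LOX window of 250 bases holds 4, which begin 185, 116, 98 and 42 bases before the start. The LOXL4 window held 0, as did the windows of LOXL1 and LOXL3, which lie inside the GENCODE spans of those genes. No window of LOXL2 was used. Of 35116 start windows of this length in RefSeq, 18.5% held at least 1. The core of SMAD binding, CAGAC on either strand, occurred 1 time in the LOX window, 1 time in that of LOXL1 and 0 times in those of LOXL3 and LOXL4, against 38% of all windows with at least 1. GC content was 55.2% for LOX, 66.8% for LOXL1, 64.4% for LOXL3 and 86.4% for LOXL4, where the median of all windows was 58.0% and 99.8% of them were below LOXL4. These matches describe the letters of the windows and are not binding sites.

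LOX, the founding member (ENSG00000113083, chromosome 5, 122063195 to 122078360 on GRCh38, minus strand), had 7.74, 6.42 and 5.75 FPKM in shHOTAIR 1, 2 and 3, against 17.6, 20.5 and 19.2 FPKM in shCtrl 1, 2 and 3. Every shHOTAIR library lay below every shCtrl library, by a wide gap. The means were 6.64 ± 1.02 FPKM in shHOTAIR and 19.1 ± 1.44 FPKM in shCtrl (SD, n = 3 each), a ratio of 0.348. The difference of mean log2(FPKM + 1), shHOTAIR minus shCtrl, was -1.40, and 63 of 11587 protein-coding genes tested were lower by more. In bulk RNA, fewer cells carrying a transcript and less of it per cell cannot be told apart.

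LOXL2 (ENSG00000134013, chromosome 8, 23297189 to 23425328, minus strand) was the most abundant member in all 6 libraries. Its FPKM was 53.5, 61.1 and 57.5 in shHOTAIR and 26.7, 27.6 and 27.6 in shCtrl. No shHOTAIR library came near the shCtrl range. The means of 57.4 ± 3.83 FPKM in shHOTAIR and 27.3 ± 0.536 FPKM in shCtrl gave a ratio of 2.1 and a log2 difference of 1.04, and 168 protein-coding genes were higher by more.

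LOXL4 (ENSG00000138131, chromosome 10, 98247690 to 98268250, minus strand) had 6.15, 7.82 and 7.0 FPKM in shHOTAIR, against 3.09, 3.05 and 3.02 FPKM in shCtrl. All 3 shHOTAIR libraries lay above the narrow band of the shCtrl libraries. Its means were 6.99 ± 0.834 FPKM in shHOTAIR and 3.05 ± 0.0359 FPKM in shCtrl, a ratio of 2.29 and a log2 difference of 0.97. For LOXL2 the coefficient of variation was 6.67% in shHOTAIR and 1.96% in shCtrl, and for LOXL4 it was 11.9% in shHOTAIR and 1.18% in shCtrl, so the repeats of both genes spread more in shHOTAIR.

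LOXL1, which is needed for elastic fibre upkeep in mice (ENSG00000129038, chromosome 15, 73925989 to 73952137, plus strand), differed in the same direction as LOXL2 and LOXL4. It had 13.6, 20.8 and 16.7 FPKM in shHOTAIR, against 5.90, 8.12 and 9.03 FPKM in shCtrl. The groups did not overlap, although LOXL1 was the most variable member, with coefficients of variation of 21.3% in shHOTAIR and 21.0% in shCtrl. Its means were 17 ± 3.62 FPKM in shHOTAIR and 7.68 ± 1.61 FPKM in shCtrl, a ratio of 2.22 and a log2 difference of 1.05.

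LOXL3 (ENSG00000115318, chromosome 2, 74532414 to 74555690, minus strand) differed least of the 5. It had 4.79, 4.82 and 5.29 FPKM in shHOTAIR, against 6.20, 5.81 and 6.03 FPKM in shCtrl. The shHOTAIR libraries lay just below the shCtrl libraries. Its means were 4.97 ± 0.283 FPKM in shHOTAIR and 6.01 ± 0.197 FPKM in shCtrl, a ratio of 0.826 and a log2 difference of -0.23. As many as 2950 protein-coding genes were lower by more than LOXL3.

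The groups did not overlap for any of the 5 members. The same held for 43.0% of the 15934 genes tested, those that averaged 1 FPKM or more, and since the contrast chose the members, nothing is read from that count. As background, limma, a linear-model test run across all genes, called 23.8% of these genes at an adjusted p of 0.05, with 11.5% higher and 12.4% lower in shHOTAIR. Of the genes called, 48.2% were higher in shHOTAIR, and 60.1% when the protein-coding genes were scaled to equal totals.

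**Figure D1:**
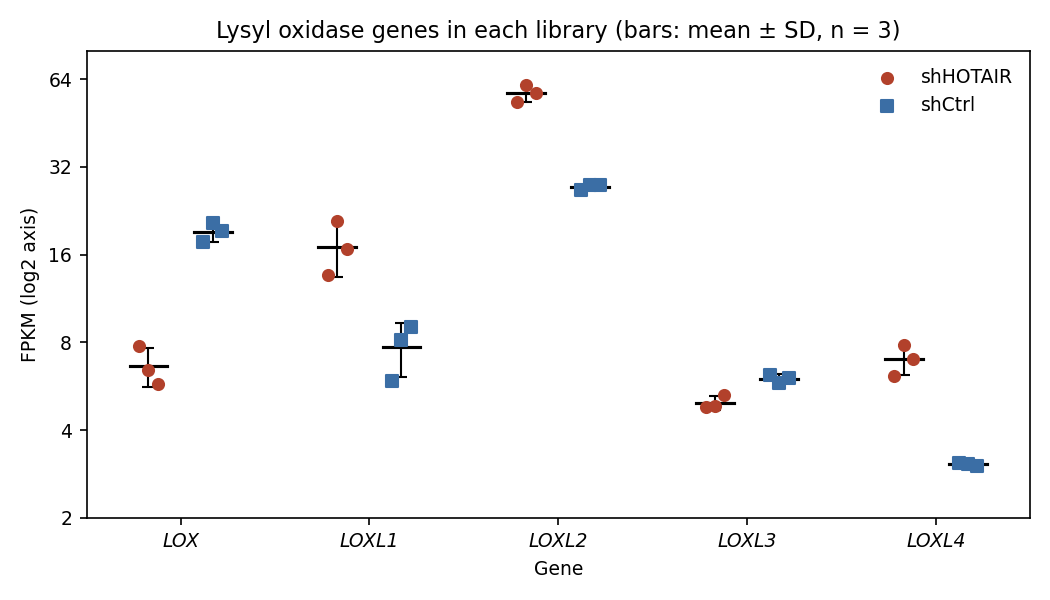
FPKM of each lysyl oxidase gene (log2 axis) in the 3 shHOTAIR libraries (circles) and the 3 shCtrl libraries (squares), with the mean and SD of each group. LOX was at 5.75 to 7.74 FPKM in shHOTAIR and at 17.6 to 20.5 FPKM in shCtrl, while LOXL1, LOXL2 and LOXL4 lay higher in shHOTAIR and LOXL3 differed little.

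The order of the members by level differed between the groups. In shHOTAIR it ran LOXL2, LOXL1, LOXL4, LOX and LOXL3, where LOXL4 (6.15 to 7.82 FPKM) and LOX (5.75 to 7.74 FPKM) overlapped and the other neighbours in the order did not. In shCtrl it ran LOXL2, LOX, LOXL1, LOXL3 and LOXL4, where LOXL1 (5.90 to 9.03 FPKM) and LOXL3 (5.81 to 6.20 FPKM) overlapped. LOX thus came next after LOXL2 in every shCtrl library, and after both LOXL2 and LOXL1 in every shHOTAIR library.

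Summed over the 5 genes, the family stood at 85.8, 101 and 92.2 FPKM in shHOTAIR and at 59.5, 65.0 and 64.9 FPKM in shCtrl. LOXL2 supplied 61.7 ± 1.05% of that sum in shHOTAIR and 43.3 ± 1.37% in shCtrl (SD, n = 3 each). The share of LOX was 9.03, 6.35 and 6.23% in shHOTAIR and 29.6, 31.5 and 29.6% in shCtrl. The sum was thus higher in shHOTAIR, with a larger part from LOXL2 and a smaller part from LOX. LOXL1 held 18.2 ± 2.38% in shHOTAIR and 12.1 ± 2.02% in shCtrl. LOXL4 held 7.5 ± 0.293% in shHOTAIR and 4.84 ± 0.304% in shCtrl. LOXL3, the least abundant member in shHOTAIR, held 5.36 ± 0.518% there and 9.55 ± 0.782% in shCtrl.

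**Figure D2:**
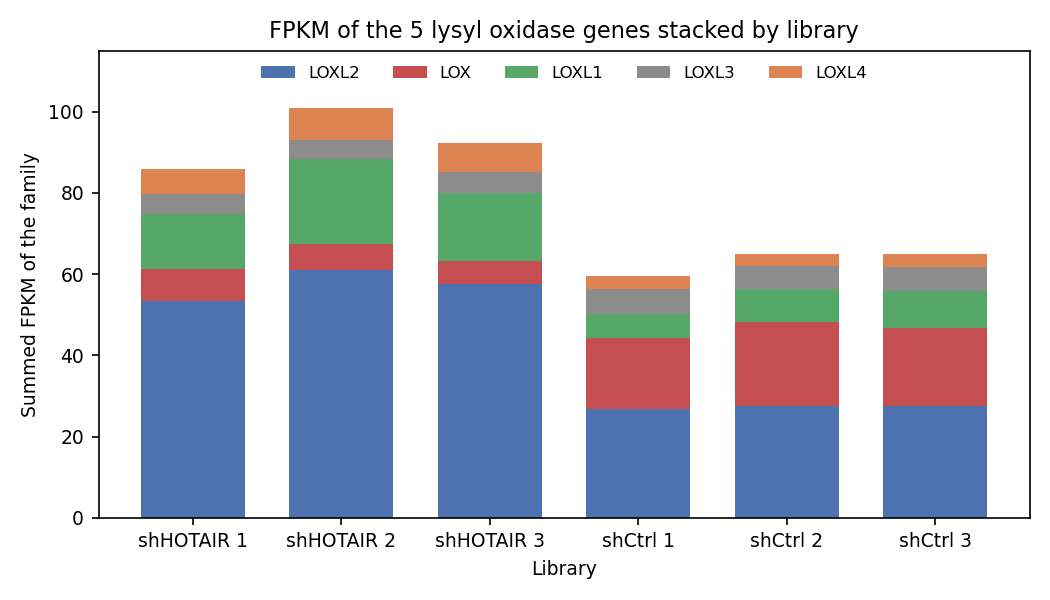
FPKM of the 5 lysyl oxidase genes stacked for each library, with the 3 shHOTAIR libraries to the left of the 3 shCtrl libraries. The total was 85.8 to 101 FPKM in shHOTAIR and 59.5 to 65.0 FPKM in shCtrl, and the LOX segment was the smaller in shHOTAIR.

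Ratios between members do not depend on how a library is scaled. The ratio of LOX to LOXL2 was 0.145, 0.105 and 0.0999 in shHOTAIR and 0.660, 0.741 and 0.696 in shCtrl. The ratio of LOX to LOXL1 was 0.407 ± 0.142 in shHOTAIR and 2.54 ± 0.428 in shCtrl, so LOX was the lesser of the pair in shHOTAIR and the greater in shCtrl. LOX stood to LOXL4 at 1.26, 0.821 and 0.822 in shHOTAIR and at 5.70, 6.71 and 6.37 in shCtrl. LOXL3 was the lesser against LOXL4 in shHOTAIR, at 0.717 ± 0.0877, and the greater in shCtrl, at 1.97 ± 0.0575. LOXL2 stood to LOXL4 at 8.24 ± 0.438 in shHOTAIR and 8.95 ± 0.272 in shCtrl, and to LOXL1 at 3.44 ± 0.498 in shHOTAIR and 3.66 ± 0.767 in shCtrl. The ratios of LOXL2 to LOXL4 overlapped between the groups, as did those of LOXL2 to LOXL1.

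Likeness of pattern was measured as the Euclidean distance between log2(FPKM + 1) values, centred per gene, over the 6 libraries. Within the family LOXL2 and LOXL4 were the closest pair, at a distance of 0.128, and LOX and LOXL1 were the farthest apart, at 3.08. LOXL1 lay at 0.453 from LOXL2 and 0.469 from LOXL4, and LOXL3 lay between 1.49 and 1.69 from each of the other 4. These distances follow from the same contrast and are a description. Among all protein-coding genes tested, those closest to LOX were EGR1, an immediate-early transcription factor (distance 0.195), the centromere gene CENPQ (0.206) and the secreted guidance factor SEMA3A (0.253). EGR1 had 4.15, 3.51 and 3.61 FPKM in shHOTAIR, against 11.3, 12.0 and 12.3 FPKM in shCtrl. Closest to LOXL2 were the actin cross-linker FLNA (0.101), the Ras GTPase-activating protein gene RASA3 (0.106) and the Notch target HES1 (0.122). Closest to LOXL4 were RASA3 (0.112), ENOX2 (0.125) and LOXL2 itself. Closest to LOXL1 were ZNF395 (0.285), the basement membrane collagen gene COL18A1 (0.289) and the laminin receptor chain ITGA3 (0.349). Closest to LOXL3 were the retromer gene VPS35 (0.0248), the neurotrophin gene BDNF (0.0438) and TAF7 (0.0478), a subunit of a general transcription factor.

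Each member was set beside its 20 nearest tested protein-coding genes, 10 on each side. LOXL4 lies on chromosome 10, where 298 of 443 tested protein-coding genes passed the test as lower and 12 as higher (median log2 difference -0.52). Of the neighbours of LOXL4 15 were called lower and 0 higher in limma (16 and 0 at an unadjusted p of 0.05), with a median log2 difference of -0.45. R3HCC1L, the nearest gene on one side, fell to 7.13 FPKM in shHOTAIR, against 10.3 FPKM in shCtrl (log2 difference -0.47, limma adjusted p = 0.0179). That call was lost without shHOTAIR 2, shCtrl 2 or shCtrl 3 and after regional centring, in which each gene is set against the median of its 50 nearest protein-coding genes in every library, with adjusted p between 0.0164 and 0.855 over its alternatives. PYROXD2, the nearest on the other side, had a log2 difference of -0.14 that did not pass (adjusted p = 0.775). The difference of LOXL4 (0.97) lay above those of these neighbours, whose maximum was 0.17, and after regional centring it was 1.49. LOXL4 was chosen for being higher in this contrast, so its place above the neighbours is a description only.

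The other members lay in regions with small median differences. Beside the counts below, 28.7% of all protein-coding genes tested were called, 13.8% higher and 14.9% lower. Around LOX the median was -0.05, with 2 neighbours called higher and 5 lower. Its neighbour SNCAIP, which encodes a synuclein-binding protein, fell (log2 difference -0.62, limma adjusted p = 0.0406), a call lost without shHOTAIR 3 or any 1 shCtrl library, with equal protein-coding totals and after regional centring (0.0264 to 0.123 over its alternatives). Around LOXL2 the median was -0.09, with 1 higher and 3 lower, and the nearest genes R3HCC1 (-0.04) and ENTPD4 (-0.26) did not pass. Around LOXL1 the median was 0.17, with 5 higher and 1 lower. On its chromosome 15, 68 of 377 tested protein-coding genes were called higher and 24 lower. The genes nearest to LOXL1 were the immune checkpoint gene CD276, which rose (0.61, limma adjusted p = 0.00706), and STOML1, which did not pass (0.05). Around LOXL3 the median was -0.06, with 0 higher and 3 lower in limma (1 and 5 at an unadjusted p of 0.05), and LOXL3 was at -0.10 after regional centring. After centring LOX was at -1.30, LOXL1 at 1.02 and LOXL2 at 1.1, close to their uncentred differences.

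**Figure D3:**
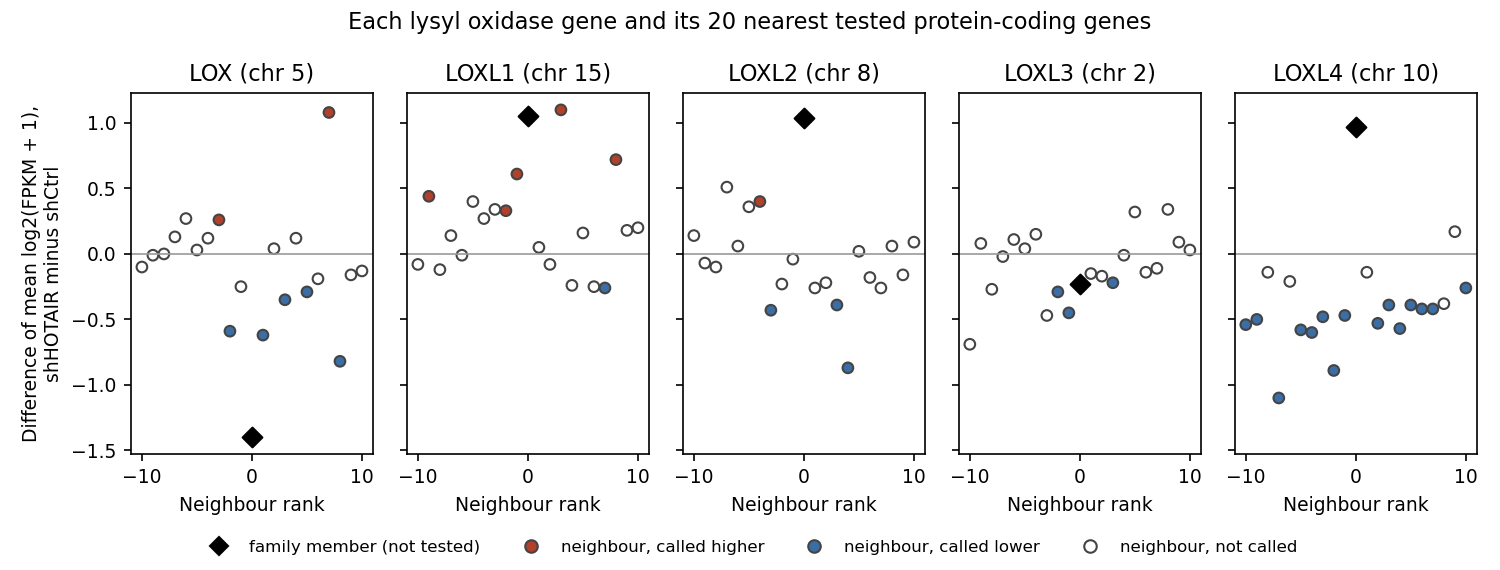
Difference of mean log2(FPKM + 1), shHOTAIR minus shCtrl, of each lysyl oxidase gene (diamond) and of its 10 nearest tested protein-coding genes on each side, ordered by rank from the gene, with filled points for genes called by limma. LOXL4 (0.97) stands above 20 neighbours with a median of -0.45, and LOX (-1.40) below 20 neighbours with a median of -0.05. The members were chosen from this contrast.

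Annotated genes overlap every member. The labels do not state a strand setting for the counting, so reads of overlapping exons may be shared. AC090197.1, a non-coding gene on the strand opposite to LOXL2 with 178 shared exonic bases, rose to 24.9 ± 1.35 FPKM in shHOTAIR, against 11.8 ± 0.584 FPKM in shCtrl (log2 difference 1.02, limma adjusted p = 0.00083). LOXL1-AS1, an antisense gene that shares 335 exonic bases with LOXL1, rose to 15.1 ± 1.04 FPKM in shHOTAIR, against 10.9 ± 1.26 FPKM in shCtrl (0.44, adjusted p = 0.0294), a call lost without any library but shHOTAIR 1 and after regional centring (0.0199 to 0.103 over its alternatives). HTRA2, a mitochondrial protease gene, shares 625 exonic bases with LOXL3, or 14.3% of the exonic length of LOXL3, and fell to 59.5 ± 3.14 FPKM in shHOTAIR, against 81.5 ± 6.96 FPKM in shCtrl (-0.45, adjusted p = 0.013). The HTRA2 call was lost in limma with a block for replicate number (adjusted p = 0.0715). AC090197.1, LOXL1-AS1 and HTRA2 differed in the direction of the member they overlap. ENTPD4, on the same strand as LOXL2 with 120 shared bases, had a log2 difference of -0.26, opposite to LOXL2, and did not pass (adjusted p = 0.125), though it was called lower without shHOTAIR 1 (-0.35, adjusted p = 0.0432). DOK1 (216 bases shared with LOXL3, -0.15) and SRFBP1 (138 with LOX, -0.25) did not pass. AL139241.1, antisense to LOXL4 with 152 shared bases, did not exceed 0.474 FPKM. The part of shared reads in the values of the members was not tested.

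The genes that work with lysyl oxidases were read in lists of precursor processing, copper supply, substrates, collagen modification and known regulators. Of 133 genes listed 91 reached a mean of 1 FPKM, and 25 of these rose and 9 fell, or 37.4% of them in either direction. All of the listed genes are protein-coding, and of the 11587 protein-coding genes tested 28.7% were called, 13.8% higher and 14.9% lower. The median log2 difference over the 91 was 0.09, beside -0.033 over the protein-coding genes tested. These genes come from the same libraries as the members, so the counts are no independent evidence about the family.

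**Figure D4:**
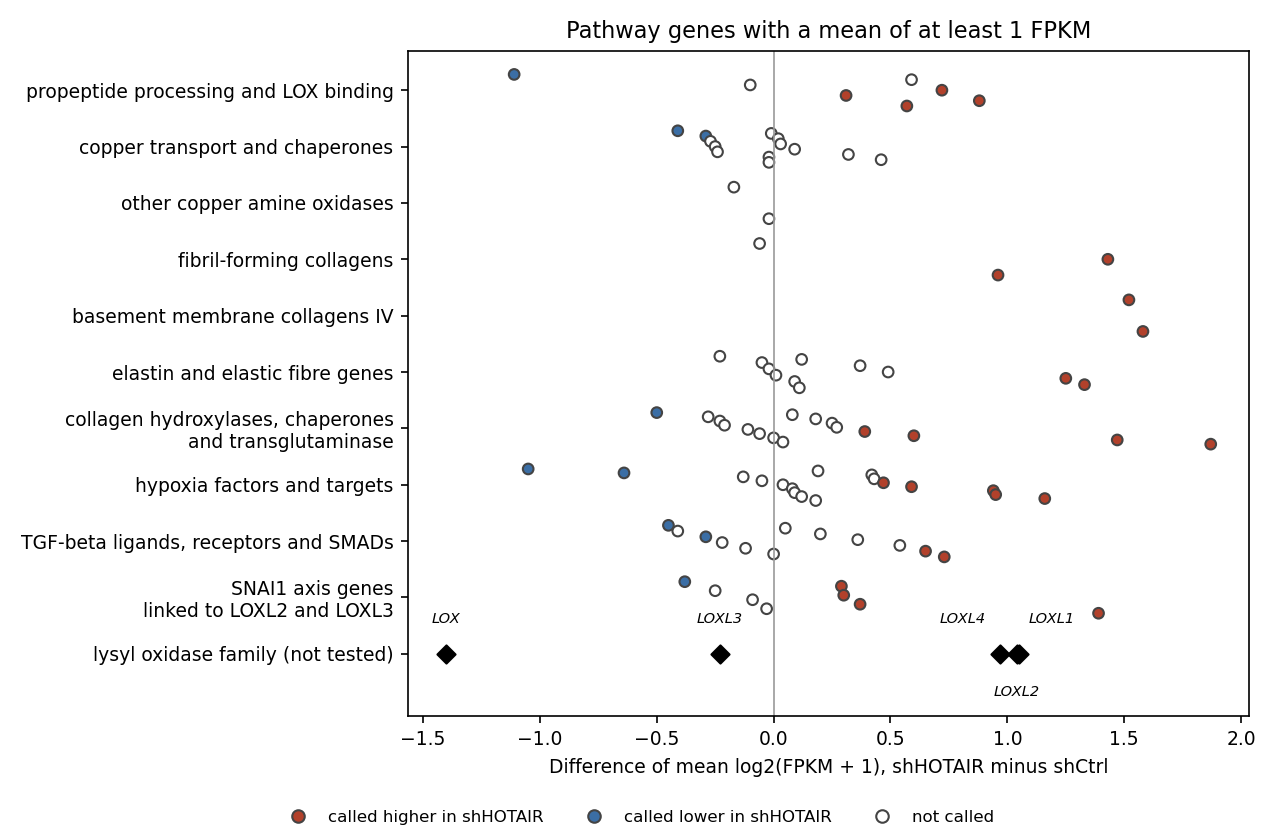
Difference of mean log2(FPKM + 1), shHOTAIR minus shCtrl, for each pathway gene with a mean of at least 1 FPKM, by list, filled where limma called the gene, with the 5 lysyl oxidase genes as diamonds at the bottom. The 2 collagen IV chains with a mean of at least 1 FPKM (1.52 and 1.58) lie to the right of zero and copper transport genes lie between -0.41 and 0.46.

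Of 7 tested genes in the list of propeptide processing and LOX binding, 4 rose and 1 fell (median log2 difference 0.57). That list also takes in a proprotein convertase and a collagen chaperone. BMP1, the protease that cuts the propeptides of LOX and LOXL1, had 5.49, 5.70 and 7.50 FPKM in shHOTAIR, against 4.01, 3.38 and 4.17 FPKM in shCtrl (0.57, limma adjusted p = 0.0331). The proprotein convertase FURIN (0.72, adjusted p = 0.0249), the matricellular gene THBS1 (0.88, 0.00582) and the collagen chaperone FKBP10 (0.31, 0.0344) rose as well. Fibronectin, FN1, which binds LOX and BMP1, fell, with 82.4, 98.4 and 93.5 FPKM in shHOTAIR, against 225, 193 and 180 FPKM in shCtrl (-1.11, adjusted p = 0.00226). The BMP1 call was lost without any 1 library (0.017 to 0.101 over its alternatives), the FURIN call without any library but shHOTAIR 1 and with regional centring (0.00913 to 0.167), and the FKBP10 call without shCtrl 2 or any 1 shHOTAIR library (0.0251 to 0.101).

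Lysyl oxidases need copper, and of 13 tested copper transport and chaperone genes 0 rose and 2 fell in limma (0 and 3 at an unadjusted p of 0.05), with a median of -0.02. ATP7A, the pump that loads copper onto secreted enzymes, was at 1.39 ± 0.112 FPKM in shHOTAIR and 1.24 ± 0.0373 FPKM in shCtrl (log2 difference 0.09, limma adjusted p = 0.642). The chaperone CCS fell (-0.41, adjusted p = 0.0155), a call lost without shHOTAIR 1, shHOTAIR 3, shCtrl 1 or shCtrl 3 and with regional centring (0.0141 to 0.129 over its alternatives). SCO2 fell (-0.29, adjusted p = 0.0299), a call lost without any library but shCtrl 1 and with equal protein-coding totals (0.0236 to 0.0952).

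Few substrates of the family reached a mean of 1 FPKM, and those that passed the test were higher. Of 6 collagen IV chains, which form the network of basement membranes and are substrates of LOXL2, 2 were tested and both rose. COL4A1 had 8.41, 9.94 and 7.85 FPKM in shHOTAIR, against 2.22, 2.62 and 2.30 FPKM in shCtrl (log2 difference 1.52, limma adjusted p = 0.0011). COL4A2, which adjoins COL4A1 on chromosome 13, was higher by 1.58 (adjusted p = 0.00347). After regional centring these differences were 0.77 (adjusted p = 0.0113) for COL4A1 and 0.82 (adjusted p = 0.0405) for COL4A2, with 0.000674 to 0.0215 and 0.00239 to 0.0405 over their alternatives. The other 4 collagen IV chains did not exceed 0.921 FPKM and were not tested. Among them COL4A6 had 0.185 ± 0.0446 FPKM in shHOTAIR and 0.78 ± 0.159 FPKM in shCtrl and COL4A4 had 0.0863 ± 0.00549 FPKM in shHOTAIR and 0.204 ± 0.0415 FPKM in shCtrl, both lower in shHOTAIR without overlap, while COL4A5 was higher without overlap and COL4A3 overlapped. Of 11 fibril-forming collagen genes 3 were tested, and COL5A1 (1.43, adjusted p = 0.00902) and COL1A1 (0.96, adjusted p = 0.00572) rose. The COL5A1 call was lost in limma with a block for replicate number (adjusted p = 0.0577). Elastin, ELN, the other classic substrate, did not exceed 0.219 FPKM. Of 11 tested elastic fibre genes 2 rose, EFEMP1 (1.25, adjusted p = 0.000406) and MFAP2 (1.33, adjusted p = 0.00673), and 0 fell in limma (3 and 0 at an unadjusted p of 0.05). FBLN5, which tethers LOXL1 to elastic fibres, was at 4.93 ± 0.564 FPKM in shHOTAIR and 3.27 ± 0.862 FPKM in shCtrl and did not pass (0.49, adjusted p = 0.0885), but was called higher without shCtrl 1 (0.65, adjusted p = 0.032). None of the 8 small leucine-rich proteoglycan genes reached a mean of 1 FPKM.

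Of 16 tested genes that modify, fold or cross-link collagen by other means, 4 rose and 1 fell (median log2 difference 0.06). TGM2, the transglutaminase that cross-links the matrix without lysyl oxidases, had 173, 188 and 189 FPKM in shHOTAIR, against 64, 64.4 and 67.6 FPKM in shCtrl (1.47, limma adjusted p = 0.000336). P3H2, a prolyl 3-hydroxylase that acts on collagen IV (1.87, adjusted p = 0.00083), the lysyl hydroxylase PLOD1 (0.60, 0.00497) and P3H1 (0.39, 0.0147) rose. P4HA1, a prolyl 4-hydroxylase gene on chromosome 10, fell (-0.50, adjusted p = 0.00245), and was at -0.01 after regional centring (adjusted p = 0.924, with 0.00177 to 0.924 over its alternatives). PLOD1 was at 0.30 after that centring (0.0442, with 0.00334 to 0.0442). The P3H1 call was lost without shHOTAIR 3, shCtrl 2 or shCtrl 3 and with regional centring (0.00602 to 0.0984).

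LOX is a target of the hypoxia-inducible factors, and genes of that response went both ways. Of 17 tested 5 rose and 2 fell, with a median log2 difference of 0.18. HIF1A, the oxygen-regulated subunit, had 417, 402 and 426 FPKM in shHOTAIR, against 225, 216 and 206 FPKM in shCtrl (0.94, limma adjusted p = 0.000699). Its homologue EPAS1 (1.16, adjusted p = 0.00635) and the targets EGLN3 (0.95, 0.0103), ADM (0.59, 0.0129) and SLC2A1 (0.47, 0.0105) rose. ANKRD37 (-1.05, adjusted p = 0.00251) and BNIP3, on chromosome 10 (-0.64, adjusted p = 0.00115), fell. EGLN3 lost its call in limma with a block for replicate number (adjusted p = 0.0553). ADM lost its call without shHOTAIR 3, shCtrl 1 or shCtrl 2 (0.00553 to 0.055 over its alternatives), and regional centring ended those of BNIP3 (-0.16, adjusted p = 0.0796, with 0.000886 to 0.0796 over its alternatives) and SLC2A1 (0.31, adjusted p = 0.0802, with 0.00839 to 0.0802).

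TGF-beta signalling is another known inducer of lysyl oxidases, and of 12 tested genes of that pathway 2 rose and 2 fell (median log2 difference 0.02). SMAD3 (0.65, limma adjusted p = 0.00155) and the co-receptor TGFBR3 (0.73, adjusted p = 0.00288) rose, and the receptor TGFBR2 (-0.29, adjusted p = 0.00774) and SMAD2 (-0.45, adjusted p = 0.0121) fell. SMAD2 lost its call without shCtrl 3 (adjusted p = 0.0515) and with regional centring (-0.05, adjusted p = 0.729), within 0.00894 to 0.729 over its alternatives. TGFBR2 lost its call in limma with a block for replicate number (adjusted p = 0.0661).

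LOXL2 and LOXL3 are known to bind SNAI1, a repressor of E-cadherin. SNAI1 had 0.782, 1.05 and 0.912 FPKM in shHOTAIR, against 0.660, 0.421 and 0.297 FPKM in shCtrl, below the mean needed for a test. Of 8 tested genes of this axis 4 rose and 1 fell (median log2 difference 0.13). SNAI2, the paralog of SNAI1, had 27.3, 24.3 and 24.2 FPKM in shHOTAIR, against 7.83, 10.2 and 9.08 FPKM in shCtrl (1.39, limma adjusted p = 0.00116). PTK2 (0.29, adjusted p = 0.022), SRC (0.30, 0.0278) and CLDN4 (0.37, 0.0222) rose, and the repressor ZEB1, on chromosome 10, fell (-0.38, 0.0461). Each of these 4 calls was lost without some single libraries, namely for PTK2 any shHOTAIR library or shCtrl 3 (0.0179 to 0.0795 over its alternatives), for SRC any shHOTAIR library, shCtrl 1 or shCtrl 2 (0.0158 to 0.0934), and for CLDN4 (0.0126 to 0.0875) and ZEB1 (0.013 to 0.365) any library but shHOTAIR 1. ZEB1 also lost its call with other scalings and without a trend, and stood at 0.16 after regional centring.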

How the data were processed

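RNA-seq libraries of MDA-MB-231 cells with an induced HOTAIR or scrambled hairpin, 3 per group, were grouped by the titles in the labels, to which the columns of the table correspond. Per the labels' protocols, poly(A) RNA was isolated with a NEBNext module, and a PrepX kit was used for the libraries. The submitters' processing notes name TopHat2 2.0.13, DESeq and GRCh38 without a role. The values are FPKM as deposited by the authors. The program, annotation and strand setting behind the FPKM are not stated in the labels. The depth is unknown, so no counting intervals are given.

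Ensembl identifiers were matched to GENCODE 29 on GRCh38 (56807 of 65198 rows). Groups were compared as log2(FPKM + 1) with limma 3.58.1 in R 4.3.3 (intensity trend, no replicate block, Benjamini-Hochberg adjustment over the 15934 genes that averaged 1 FPKM or more, threshold 0.05), a procedure tested on simulated data. Since 1 is added, log2 differences understate changes of low genes. SD values are over 3 libraries of FPKM. Tables and figures used Python 3.11.15, numpy 2.4.6, pandas 2.3.3 and matplotlib 3.10.9. Start windows came from RefSeq (GRCh38.p14), with 4 of 5 members used and LOXL2 left out.

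The members, lists, tests and alternatives were chosen with earlier results of these data known. The rule named the 5 members, HOTAIR, up to 6 genes per pathway list by smallest p with every called member of lists with 8 or fewer calls, the 3 closest genes per member, and genes that overlap or adjoin a member. Not all of these are described. ATP7A, ELN, SNAI1, COL4A3, COL4A4, COL4A5 and COL4A6 were added after their values were seen. Alternatives were other pseudocounts, filters, scalings and limma settings, a replicate block, regional centring (each gene minus the median of its 50 nearest protein-coding genes) and leaving out each library. Their use on genes that overlap or adjoin a member was added after the data were seen.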

Additional observations from a re-analysis of the deposited data

How the results depend on the processing

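Over 17 alternatives each, every member kept its direction, for which LOX, LOXL2 and LOXL4 had been chosen. The filters on low values, the limma settings and the replicate block leave log2 differences unchanged by construction. Only the pseudocounts, the scalings, regional centring and leaving out a library could move them. The log2 difference ranged from -1.53 to -1.30 for LOX, 0.90 to 1.20 for LOXL1, 1.00 to 1.11 for LOXL2, -0.28 to -0.10 for LOXL3 and 0.90 to 1.49 for LOXL4. Shifts beyond the spread of the repeats were those of LOXL2 (1.11) and LOXL3 (-0.17) with equal protein-coding totals, LOXL3 (-0.10) and LOXL4 (1.49) with regional centring, and LOXL4 with pseudocounts of 0.1 (1.16) and 0.01 (1.19). Without each library in turn LOX ranged from -1.50 to -1.32 and LOXL1 from 0.90 to 1.20.

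All genes called numbered 3797, and 2394 with regional centring, 2508 without shCtrl 1, 2470 without shCtrl 3 and 2470 to 3159 over all single libraries left out. Of the pathway genes 25 were called higher and 9 lower. Regional centring gave 29 higher and 4 lower, and leaving out single libraries gave 17 to 23 higher and 5 to 8 lower, with 5 lower without shCtrl 3. Of 34 named pathway genes called, 16 kept the call in every alternative in which they were tested, 3 of these (COL1A1, MFAP2 and ANKRD37) being left out by a minimum mean of 5 FPKM. The call held for 22 without each library and for 26 with regional centring. Calls were gained by COX17 without shHOTAIR 1, FBLN5 and SMAD4 without shCtrl 1, ENTPD4 without shHOTAIR 1, and P3H4 with regional centring and with equal protein-coding totals. Signs turned, with no call after the turn, for ATP7B (-0.22), SMAD4 (0.06), ZEB1 (0.16), AOC3 (0.11), R3HCC1L (0.03) and PYROXD2 (0.38) with regional centring, and for AOC3 (0.01), COL27A1 (0.00) and R3HCC1 (0.03) with equal protein-coding totals. Without single libraries the sign turned within ranges of -0.12 to 0.10 for AOC3, -0.19 to 0.02 for COL27A1, -0.07 to 0.20 for STOML1, -0.14 to 0.05 for R3HCC1 and -0.35 to 0.13 for PYROXD2. The cause of these shifts was not tested.

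Libraries of the same replicate number did not deviate together (r = -0.0221, 0.00696 and -0.0307 across 15934 genes). With 3 libraries per group this cannot show whether same-numbered samples were made in parallel. With a replicate block 1740 genes were called, with 14 pathway genes higher and 4 lower. It kept 18 of the 34 named calls, and the log2 differences of the members were the same by construction. The lists of lost calls in the Results mostly leave out this block and the other filters on low values. The unknown depth limits what can be said of genes listed near 0, HOTAIR among them.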
